A study of Rattus norvegicus with 6 samples.

Results

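The 10 core genes of the circadian clock, Per1, Per2, Per3, Cry1, Cry2, Arntl, Clock, Nr1d1, Nr1d2 and Dbp, were followed in rat bone marrow mesenchymal stem cells (BMSCs) given ginsenoside Rb1 or DMSO. They were taken by gene symbol from the 21797 genes of the deposited expression table, and each had 1 row there. The study set 3 RNA-seq libraries of BMSCs cultured for 24 h with 20 µM ginsenoside Rb1, a triterpene glycoside from ginseng root, against 3 libraries of BMSCs cultured with the solvent DMSO. The cells were flushed from femur and tibia of 4-week-old Sprague-Dawley rats, grown in medium with fetal bovine serum and used at passage 2 to 3. The dose and age are those of the paper's methods, and the 24 h with Rb1 is given in its results. How long the DMSO cultures were kept is not stated in the labels or methods. The sex of the rats is female in the sample labels and male in the paper's methods. Whether each library had a culture of its own is not stated, so p-values reflect library-to-library spread that may be only technical.

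The clock is a feedback loop of transcription that runs in most cells, cultured stromal cells included. The protein of Arntl, BMAL1, pairs with CLOCK and activates genes that carry the E-box sequence CACGTG, among them the Per, Cry, Nr1d and Dbp genes. PER and CRY proteins then return to the nucleus and repress that pair, while the nuclear receptors REV-ERBα and REV-ERBβ, encoded by Nr1d1 and Nr1d2, repress Arntl and DBP activates genes with a D-box. In mice, loss of Per or Cry genes raises bone mass. Serum and glucocorticoids set the phase of cultured cells, which later drift apart. Each culture here was taken once and the hour of harvest was not found in the sources, so the values are levels at 1 time and neither phase nor amplitude was measured.

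Short sequence words tied to this loop or to cAMP were looked for in the start regions of the members. Those with a match are shown, because the levels below belong to these same genes. A match is a run of letters only, and whether it is bound in these cells was not tested. The RefSeq table of start regions (assembly GRCr8, 250 bases before and 50 after each annotated start) had 11 entries for 9 members, all but Cry1. They were searched on both strands for the E-box CACGTG, its variant CACGTT, the D-box as TTATGTAA or TTACGTAA, the cAMP response element TGACGTCA and AGGTCA, the core bound by REV-ERB and ROR receptors. Of 33469 start regions in the table, 6.42% held CACGTG, 4.83% CACGTT, 0.893% TTATGTAA, 0.12% TTACGTAA, 1.83% TGACGTCA and 16.2% AGGTCA, and none of these words contains another. Capitals mark the match, each sequence runs 5′ to 3′ along the gene, and positions count back from −1, the base before the start.
Per2 (chr9:99496994-99497243, minus strand): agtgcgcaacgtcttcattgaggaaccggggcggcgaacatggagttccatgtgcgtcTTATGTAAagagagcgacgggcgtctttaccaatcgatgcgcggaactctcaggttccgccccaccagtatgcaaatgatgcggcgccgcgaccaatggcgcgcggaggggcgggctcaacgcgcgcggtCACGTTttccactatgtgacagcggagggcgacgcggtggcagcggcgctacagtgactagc
Cry2 (chr3:98860607-98860686, minus strand): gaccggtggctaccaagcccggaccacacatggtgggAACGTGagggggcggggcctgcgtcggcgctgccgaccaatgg
Arntl, listed by RefSeq as Bmal1 (chr1:176766276-176766327, plus strand): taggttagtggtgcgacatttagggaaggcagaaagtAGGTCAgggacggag
Nr1d1, downstream start (chr10:84229603-84229682, minus strand): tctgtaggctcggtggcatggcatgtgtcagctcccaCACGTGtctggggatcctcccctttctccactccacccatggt
Nr1d1, upstream start (chr10:84231944-84232023, minus strand): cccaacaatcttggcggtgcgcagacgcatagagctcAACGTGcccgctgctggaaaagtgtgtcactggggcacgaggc
Nr1d2 (chr15:9954810-9954889, plus strand): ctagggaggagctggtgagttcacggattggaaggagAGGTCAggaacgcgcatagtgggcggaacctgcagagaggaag

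Per2 held a D-box from −192 to −185 and CACGTT from −62 to −57. Cry2 held CACGTT on the other strand from −212 to −207, and Nr1d1 held CACGTG from −191 to −186 of one start and CACGTT on the other strand from −174 to −169 of the other. AGGTCA lay from −15 to −10 of the Arntl start and from −187 to −182 of the Nr1d2 start. The start regions of Per1, Per3, Clock and Dbp held none of the 6 words in these windows.

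No clock gene passed the test between Rb1 and DMSO over all genes. The mean level of Cry2 with Rb1 was 0.780 times that with DMSO and that of Clock 1.27 times, and in each case the 3 Rb1 libraries lay apart from the 3 DMSO libraries. Per1 was lower on average, which came largely from 1 Rb1 library, and its groups lay only just apart. Per2, Per3, Cry1, Arntl, Nr1d1, Nr1d2 and Dbp had overlapping groups. Levels are FPKM, fragments scaled for transcript length and for library size, and differences are of log2(FPKM + 1), Rb1 minus DMSO, from limma across the 10781 genes with at least 1 FPKM in at least 3 libraries. All 10 members passed that filter.

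**Figure D1:**
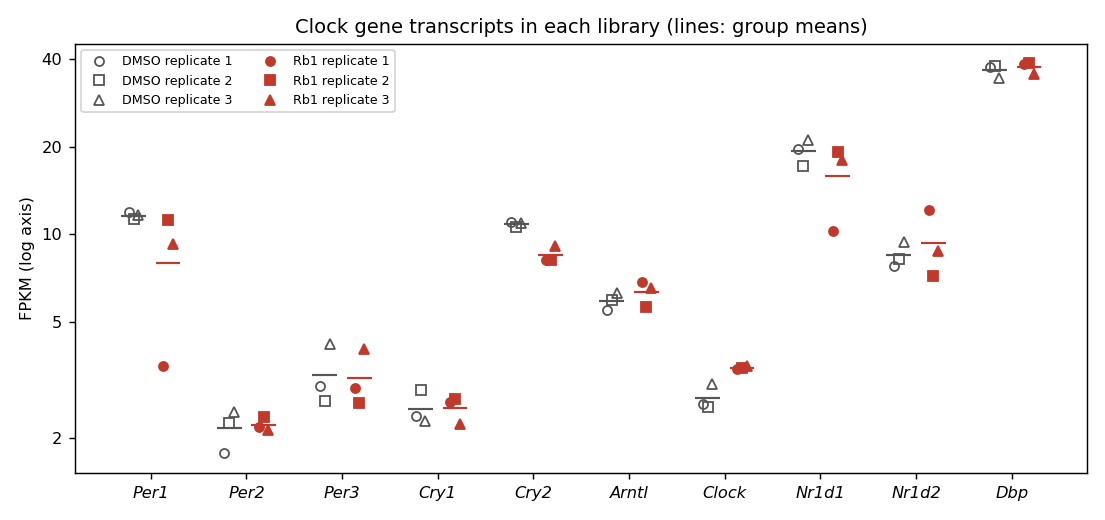
FPKM of the 10 clock genes (log axis) in each of the 3 DMSO libraries (open grey symbols) and 3 Rb1 libraries (filled red symbols), with the group mean as a line and the symbol shape giving the replicate number. The Cry2, Clock and Per1 groups lie apart, those of Per1 only just (highest Rb1 library 11.2 FPKM, lowest DMSO library 11.3 FPKM). Rb1 replicate 1 lies far below the other libraries for Per1 (3.53 FPKM) and Nr1d1 (10.2 FPKM).

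An adjusted p under 0.05 was reached by 0 of the 10 members in limma, against 0.0186% of all genes tested. With no adjustment, limma gave p under 0.05 for 2 of 10, Clock higher and Cry2 lower, against 22.9% of all genes tested (8.27% higher and 14.6% lower). The split of these calls over all genes depended on the scaling, since 892 were higher and 1575 lower as deposited, 1279 and 1158 after quantile normalization and 1371 and 993 after centring on the median. Groups did not overlap for 3 members, against 32.3% of all genes tested, of which 1 was higher and 2 were lower with Rb1 (11.9% and 20.3% of all genes). The shares of members called thus lay close to those of all genes. The median log2 difference of the members was 0.021, beside −0.070 for all genes tested. A comparison of 3 libraries against 3 cannot give a p below 0.1 in a two-sided exact permutation test, which Cry2, Clock and Per1 each reached.

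The libraries differed in ways that bear on these values. They held 8197157 to 14177062 fragments, and the shallowest, Rb1 replicate 1, was the lowest or the highest of all 6 libraries in 61.1% of the genes tested, and in 5 of the 10 members. Mitochondrially encoded genes took 9.39% to 11.5% of the fragments in the Rb1 libraries and 5.58% to 8.65% in the DMSO libraries. Of 10 markers of stromal cells 9 were analysed here, and all of them passed the filter, with a summed level, led by Col1a1, of 3495 to 5487 FPKM with Rb1 and 5821 to 6580 FPKM with DMSO, and with Thy1 at 345.0 to 528.8 FPKM. Markers of macrophages and other blood cells were present as well, 11 of 11 measured, with a summed level of 776.6 to 838.2 FPKM with Rb1 and 898.7 to 934.5 FPKM with DMSO, including Ptprc at 4.82 to 7.86 FPKM. Of 6 endothelial markers measured 3 were tested, and the list summed to 21.3 to 23.3 FPKM with Rb1 and 32.1 to 49.6 FPKM with DMSO. The 4 adipocyte markers summed to 1.42 to 2.45 FPKM over all libraries, and of the neural markers Snap25 was listed at 0 in each while Tubb3 was at 29.7 to 66.0 FPKM. At an unadjusted limma p under 0.05, 5 of the 9 stromal, 1 of the 11 blood cell and 3 of the 3 tested endothelial markers were called, all lower with Rb1 but the stromal marker Itgb1, beside 22.9% of all genes called and 14.6% called lower, a split that turned with the scaling as given above. The part of these differences in the values of the clock genes was not tested, and in bulk RNA fewer cells of a type cannot be told apart from less RNA per cell.

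Among the repressors, Cry2, whose protein is a core inhibitor of the CLOCK and BMAL1 pair, had the clearest separation. Its level was 8.13, 8.16 and 9.14 FPKM in Rb1 replicates 1, 2 and 3 and 11.04, 10.60 and 10.96 FPKM in the DMSO replicates, from 271 to 546 fragments per library. The highest Rb1 library therefore lay below the lowest DMSO library. Mean and SD were 8.48 ± 0.58 FPKM under Rb1 and 10.9 ± 0.23 FPKM under DMSO (n = 3 each), and the log2 difference was −0.33 (standard error 0.11, 95% interval −0.58 to −0.076). The p from limma was 0.0174 unadjusted and 0.154 adjusted, and the gene ranked 1223 by p among those tested. Without DMSO replicate 1 the unadjusted p from limma was 0.0574, with a log2 difference of −0.32. Rescaling made the difference smaller, −0.24 with quantile normalization and −0.25 with median centring (unadjusted p = 0.0407 and 0.0429 from limma). The table, which names no build, puts Cry2 (ENSRNOG00000007478) on chromosome 3, minus strand, positions 81314148 to 81344110.

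Cry1, the close relative of Cry2, was expressed well below it. The Rb1 libraries had 2.65, 2.71 and 2.23 FPKM and the DMSO libraries 2.37, 2.91 and 2.28 FPKM. The 2 groups spanned nearly the same range, and the log2 difference was 0.0066 (standard error 0.12, 95% interval −0.28 to 0.30, adjusted p = 0.981 from limma). The ratio of Cry2 to Cry1, which does not depend on the scaling of a library, was 3.07, 3.01 and 4.10 with Rb1 and 4.67, 3.64 and 4.82 with DMSO. These ratios overlapped, and a shift of the Cry genes against each other was not shown.

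Per1, an immediate target of glucocorticoid and cAMP signals as well as of the E-box, was the member with the widest spread. It was at 3.53, 11.2 and 9.28 FPKM in the Rb1 replicates 1, 2 and 3 and at 11.9, 11.3 and 11.7 FPKM in the DMSO replicates. Rb1 replicate 1 stood far below every other library, on 120 fragments where the other libraries had 497 to 593, while Rb1 replicate 2 lay just under the lowest DMSO library. The log2 difference was −0.61 (standard error 0.34, 95% interval −1.40 to 0.19, adjusted p = 0.318 from limma). Without Rb1 replicate 1 it was −0.17 (unadjusted p = 0.174 from limma), and without Rb1 replicate 2 it was −0.89 (unadjusted p = 0.0343 from limma). The size of the Per1 difference therefore rested on Rb1 replicate 1. The table places Per1 (ENSRNOG00000007387) on the plus strand of chromosome 10 from 55687049 to 55695994.

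Per2, the PER protein with the strongest role in keeping the rhythm in mice, was the lowest of the 10 members. Its level was 2.18, 2.35 and 2.13 FPKM with Rb1 and 1.77, 2.25 and 2.44 FPKM with DMSO, with the Rb1 libraries inside the range of the DMSO libraries. The log2 difference was 0.036 (standard error 0.12, 95% interval −0.25 to 0.32, adjusted p = 0.879 from limma). Per3, which is dispensable for rhythms in mice, was at 2.97, 2.64 and 4.04 FPKM with Rb1 and 3.01, 2.67 and 4.20 FPKM with DMSO. Replicate 3 was the highest in each group, and the means of 3.22 ± 0.73 and 3.29 ± 0.81 FPKM (SD, n = 3 each) differed by far less than the spread within a group. The length in bases over which the FPKM of Per3 was reckoned, taken from the ratio of scaled fragments to FPKM, ranged from 3240 to 5149 between libraries. For Per1, Per2, Cry1, Cry2, Arntl, Nr1d1 and Nr1d2 the longest was at most 1.02 times the shortest. It was 1.05 times the shortest for Clock and 1.13 times for Dbp. As CPM, fragments scaled for library size alone, Per3 was at 9.64 to 14.0 with Rb1 and 11.7 to 16.3 with DMSO, which also overlapped.

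Of the activators, Clock was the 1 member whose 3 Rb1 libraries all lay above the DMSO libraries. It encodes the partner of BMAL1 and was at 3.44, 3.47 and 3.53 FPKM with Rb1 and 2.61, 2.55 and 3.07 FPKM with DMSO, from 246 to 486 fragments per library. The Rb1 libraries were close together and the spread was mainly that of DMSO replicate 3. Mean and SD were 3.48 ± 0.049 FPKM under Rb1 and 2.74 ± 0.28 FPKM under DMSO (n = 3 each), and the log2 difference was 0.26 (standard error 0.11, 95% interval 0.0054 to 0.52). The p from limma was 0.0464 unadjusted and 0.212 adjusted. Leaving out Rb1 replicate 2, Rb1 replicate 3, DMSO replicate 1 or DMSO replicate 2 took the unadjusted limma p to 0.0845, 0.105, 0.134 and 0.151, with log2 differences from 0.23 to 0.26. It was 0.0905 with the replicate block and 0.0645 with a trended robust variance. It stayed under 0.05 in 10 of the 16 alternatives in which Clock was tested. With quantile normalization it was 0.00970 (log2 difference 0.37), and with median centring 0.0177 (log2 difference 0.34). At this level the pseudocount holds the size down, and it was 0.34 with a pseudocount of 0.1. Clock (ENSRNOG00000002175) is placed on the plus strand of chromosome 14 from 34446615 to 34502218.

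Arntl, which encodes BMAL1, was expressed above Clock and did not separate the groups. The Rb1 libraries had 6.86, 5.61 and 6.54 FPKM and the DMSO libraries 5.51, 5.96 and 6.26 FPKM. The log2 difference was 0.084 (standard error 0.12, 95% interval −0.19 to 0.36, adjusted p = 0.690 from limma). Clock per Arntl was 0.501, 0.617 and 0.540 with Rb1 and 0.474, 0.429 and 0.489 with DMSO, a pair of genes taken after the values of Clock were seen. The groups lay just apart in this ratio. Cry2 per Clock, also taken after the values were seen, was 2.36, 2.35 and 2.59 with Rb1 and 4.23, 4.15 and 3.57 with DMSO. This ratio had to lie apart, because each gene was taken for groups that lay apart in opposite directions, and it adds nothing to their own values.

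**Figure D2:**
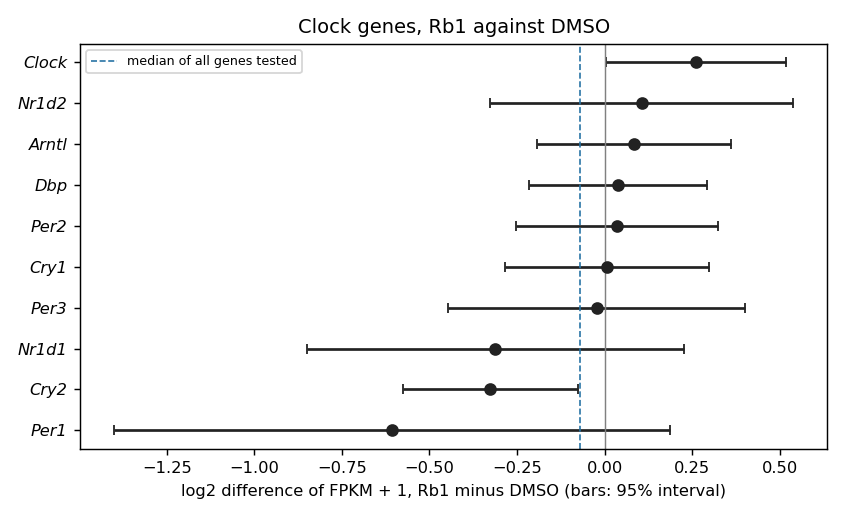
Log2 difference of FPKM + 1 (horizontal axis, Rb1 minus DMSO) for each clock gene from limma, with bars for the 95% interval, a grey line at 0 and a dashed blue line at the median of all genes tested (−0.070). The intervals of Cry2 and Clock leave out 0 before any adjustment, and that of Per1 is the widest, from −1.40 to 0.19.

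The nuclear receptor genes did not share a direction. Nr1d1 was at 10.2, 19.2 and 17.97 FPKM with Rb1 and 19.7, 17.1 and 21.0 FPKM with DMSO, and only Rb1 replicate 1 stood apart. Its log2 difference was −0.31 (standard error 0.23, 95% interval −0.85 to 0.23, adjusted p = 0.436 from limma) and −0.044 without Rb1 replicate 1. Nr1d2 was at 12.1, 7.18 and 8.79 FPKM with Rb1 and 7.77, 8.21 and 9.44 FPKM with DMSO. In Rb1 replicate 1 Nr1d2 was thus the highest of the 6 libraries while Nr1d1 was the lowest. The log2 difference of Nr1d2 was 0.11 (standard error 0.19, 95% interval −0.33 to 0.54, adjusted p = 0.752 from limma), and it turned to −0.078 without Rb1 replicate 1. Nr1d1 per Nr1d2 was 0.844 in that library and 2.04 to 2.68 in the other 5.

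Nr1d1 lies on the minus strand and Thra, the thyroid hormone receptor α gene, on the plus strand of the same stretch of chromosome 10, from 86657284 to 86690815, and the table gives them this 1 locus. The kit was stranded, but the sources used here do not say whether the counting used the strand, so the reads of Nr1d1 and Thra may not be fully separated. Thra was at 19.7, 24.8 and 24.2 FPKM with Rb1 and 25.7, 24.3 and 23.4 FPKM with DMSO. It too was lowest in Rb1 replicate 1, with a smaller gap than Nr1d1.

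Dbp, an output of the loop whose transcript swings widely over the day in many tissues, was the highest member in FPKM and one of the most even on that scale. It was at 38.5, 38.6 and 35.6 FPKM with Rb1 and 37.4, 37.9 and 34.4 FPKM with DMSO. The means of 37.6 ± 1.71 and 36.6 ± 1.92 FPKM (SD, n = 3 each) lay within 1 SD of each other, and the log2 difference was 0.039 (standard error 0.11, 95% interval −0.21 to 0.29, adjusted p = 0.850 from limma). The length behind the FPKM of Dbp was 1323 to 1385 bases with Rb1 and 1426 to 1500 bases with DMSO. As CPM Dbp was at 48.2 to 53.5 with Rb1 and 49.0 to 56.2 with DMSO, which also overlapped. With voom on fragments its log2 difference was −0.074. In Rb1 replicate 1 Dbp stood at the level of the other libraries where Per1 did not, and the cause was not tested.

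**Figure D3:**
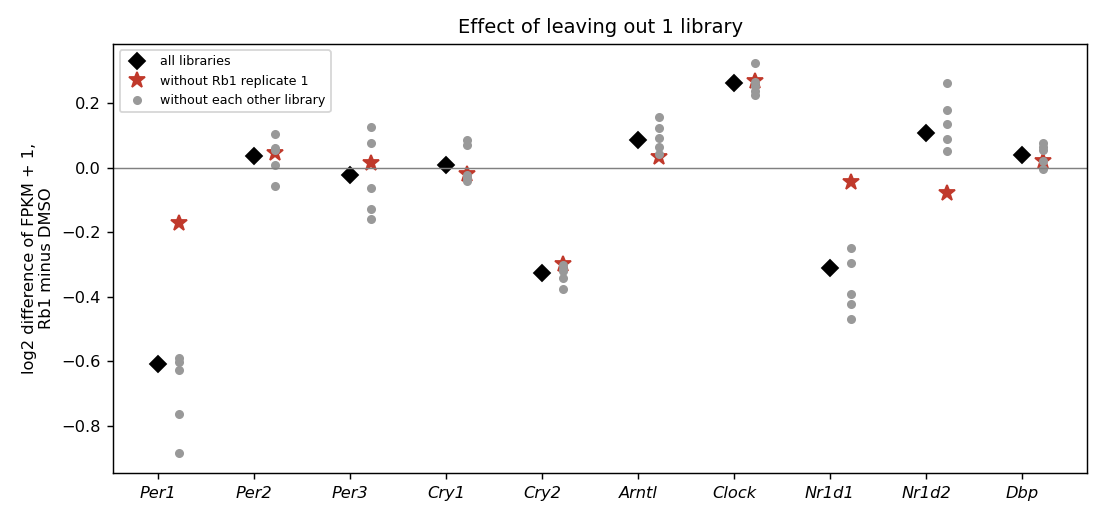
Log2 difference of FPKM + 1 (vertical axis, Rb1 minus DMSO) of each clock gene with all 6 libraries (black diamonds), without Rb1 replicate 1 (red stars) and without each other library (grey dots). Leaving out Rb1 replicate 1 takes Per1 from −0.61 to −0.17 and Nr1d1 from −0.31 to −0.044 and leaves Cry2 (−0.30) and Clock (0.27) nearly in place.

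The order of the levels in the DMSO libraries was Dbp, Nr1d1, Per1, Cry2, Nr1d2, Arntl, Per3, Clock, Cry1 and Per2, from 36.6 to 2.15 mean FPKM. FPKM is scaled for length, so these levels are set beside each other. The places of Per3 and Dbp are less certain, because the length behind their FPKM differed between libraries. That of Nr1d1 is too, since its reads may not be fully separated from those of Thra. Of 9 pairs of neighbours in this order, 6 had ranges that lay apart, and the pairs Per3 and Clock, Clock and Cry1, and Cry1 and Per2 overlapped. In the Rb1 libraries the order was Dbp, Nr1d1, Nr1d2, Cry2, Per1, Arntl, Clock, Per3, Cry1 and Per2, and only the steps from Dbp to Nr1d1 and from Arntl to Clock lay apart. The changes of rank concerned Per1, Nr1d2, Clock and Per3. At each step where they occurred, the ranges of the genes overlapped in the Rb1 libraries.

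Cry2 had the smallest p of the members, and 5 other genes had the most similar profile over the 6 libraries, by the root-mean-square difference of centred log2(FPKM + 1). They were Ehmt1 (0.0087), Pi4kb (0.015), Rell2 (0.028), Faap100 (0.029) and Cnnm3 (0.030), beside 0.171 for the spread of Cry2 about its own mean. Ehmt1 encodes a histone H3 lysine methyltransferase, Pi4kb a phosphatidylinositol kinase of the Golgi and Faap100 a protein of the Fanconi anaemia core complex. Their log2 differences lay between −0.36 and −0.30, and none is a member of the clock lists. With 10781 genes and 6 libraries, profiles this close are a description only.

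Outside the 10 members, 61 further genes of the loop, its modifiers, inputs and outputs were listed, of which 51 were tested. By limma 0 of them reached an adjusted p under 0.05. Without adjustment the limma p was under 0.05 for 7, with 3 higher and 4 lower, 13.7% of those tested against 22.9% of all genes. The 4 lower include Zbtb16, which met the filter only through the DMSO libraries, where it was high. The median log2 difference of the 51 was −0.090, beside −0.070 for all genes tested. Of 17 tested genes that the table itself assigns to the KEGG pathway of circadian rhythm and that are not members, a list taken after the files were seen, 2 were higher and 2 lower at that threshold. These were Creb1, Prkaa1 and Bhlhe40, described below, and Skp1, a subunit of the ubiquitin ligases that mark PER and CRY for degradation, with a log2 difference of 0.51 (adjusted p = 0.121 from limma).

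Tef encodes a relative of DBP that binds the same D-box. It was at 9.36, 5.45 and 8.05 FPKM with Rb1 and 11.6, 10.6 and 14.3 FPKM with DMSO. All Rb1 libraries lay below all DMSO libraries, and the difference was −0.63 on the log2 scale (limma, SE 0.20, adjusted p = 0.149). The unadjusted limma p was 0.0153, and 0.0581 without DMSO replicate 3, with a log2 difference of −0.51. Hlf, the remaining gene of this family, was listed at 0 in every library. Dbp, set out above, thus overlapped between the groups in FPKM and in CPM where Tef was lower by value.

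Bhlhe40, which encodes a repressor that competes for the E-box, was at 33.7, 37.2 and 40.9 FPKM with Rb1 and 51.1, 43.2 and 44.6 FPKM with DMSO. The groups lay apart, and the difference was −0.30 on the log2 scale (limma, SE 0.13, adjusted p = 0.211). Its unadjusted limma p of 0.0456 stayed under 0.05 in 6 of 17 alternatives, and it was 0.0914 with the replicate block, 0.0587 with quantile normalization, 0.101 with median centring and 0.0614 to 0.159 on leaving out any 1 library but Rb1 replicate 3. Ciart, another repressor of the BMAL1 complex, was picked out after its values were seen. It was at 1.63, 4.50 and 3.29 FPKM with Rb1 and 5.12, 3.70 and 6.71 FPKM with DMSO. Those groups overlapped, and the lowest library was again Rb1 replicate 1 (log2 difference −0.61, adjusted p = 0.259 from limma). Of the ROR receptors, which activate Arntl against the REV-ERB proteins, Rora was at 0.862 to 1.604 FPKM over the 6 libraries with overlapping groups. Arntl2, a paralog of Arntl, was at 1.49 to 2.82 FPKM, and neither it nor Npas2, which can stand in for Clock, was called.

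**Figure D4:**
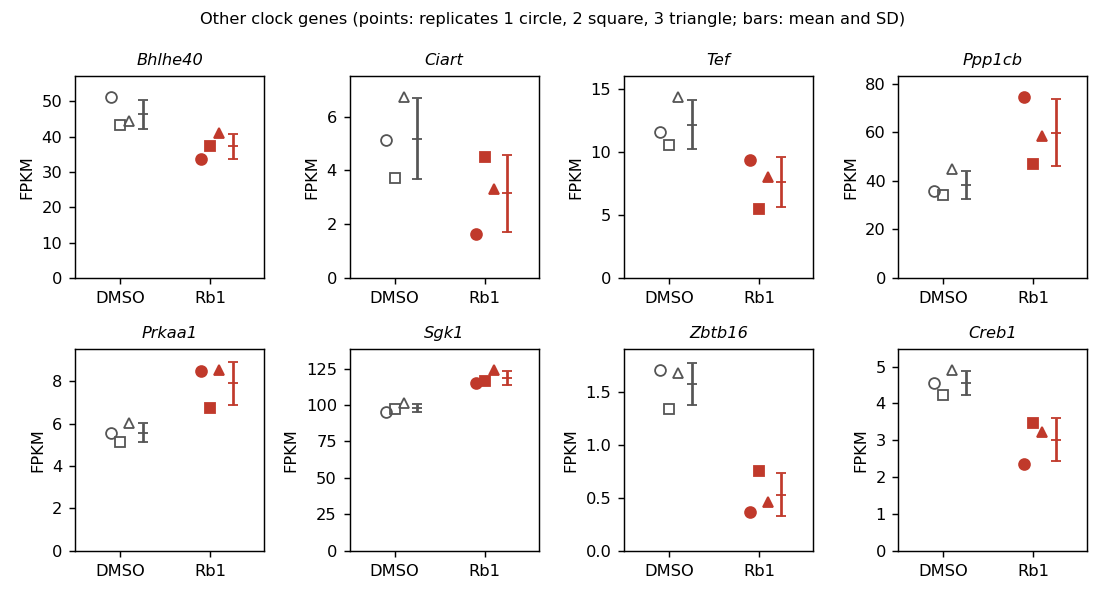
FPKM (vertical axes from 0) of 8 further clock genes in the 3 DMSO libraries (open grey) and 3 Rb1 libraries (filled red), with symbol shape giving the replicate number and bars giving mean and SD beside the points. The groups lie apart for all of them but Ciart, and none had an adjusted p under 0.05. All but Ciart were plotted because their unadjusted limma p was under 0.05, so groups that lie apart are no separate result. For Zbtb16 the filter had already required it. Of the 51 further genes tested, groups lay apart for 4 higher and 9 lower with Rb1, against 11.9% and 20.3% of all genes tested.

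Among the kinases, phosphatases and ubiquitin ligases that act on PER and CRY, 14 of 16 were tested, and 2 had an unadjusted limma p under 0.05, each with a higher level in all Rb1 libraries. These were 14.3% of the list, below the 22.9% of all genes. Ppp1cb, a catalytic subunit of protein phosphatase 1, was at 74.3, 46.7 and 58.5 FPKM with Rb1 and 35.8, 34.0 and 44.9 FPKM with DMSO (log2 difference 0.62, adjusted p = 0.145 from limma). Prkaa1, a catalytic subunit of the energy sensor AMPK that phosphorylates CRY1, was at 8.48, 6.72 and 8.504 FPKM with Rb1 and 5.58, 5.14 and 6.01 FPKM with DMSO (log2 difference 0.43, adjusted p = 0.136 from limma). With weights for the libraries, under which 800 genes passed, Prkaa1 passed too (adjusted p = 0.0468 from limma). The most abundant gene of the list, Ppp1cc, another phosphatase subunit, was at 113.5 to 186.0 FPKM with overlapping groups. The casein kinase genes Csnk1d and Csnk1e, whose products set the period through PER, overlapped between the groups.

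Of 13 cofactors of the loop 10 were tested, and limma gave an unadjusted p under 0.05 for 0 of them. The most abundant was the RNA helicase gene Ddx5, at 227.5 to 287.0 FPKM over the 6 libraries. Of 10 output genes 9 were tested, again with 0 below that threshold, beside 22.9% of all genes tested. Groups lay apart for 1 cofactor higher and 1 lower with Rb1, and for 1 output gene lower. Of all genes tested, they lay apart for 11.9% higher and 20.3% lower.

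Of 12 genes induced by glucocorticoid, cAMP or serum, or carrying those signals, 11 were tested. Zbtb16, a glucocorticoid-induced transcription factor gene, was at 0.371, 0.760 and 0.462 FPKM with Rb1 and 1.71, 1.35 and 1.68 FPKM with DMSO, on 8 to 54 fragments per library. It met the filter only through the DMSO libraries, where it was high, so its p bears on a difference that the filter had already required. The difference was −0.76 on the log2 scale (limma, SE 0.14, adjusted p = 0.117), a size set by the pseudocount, and it was −1.02 with a pseudocount of 0.5, −1.45 with 0.1 and −1.56 with voom on fragments. Creb1, the factor through which cAMP acts on Per1, was at 2.36, 3.46 and 3.24 FPKM with Rb1 and 4.55, 4.23 and 4.90 FPKM with DMSO (log2 difference −0.48, adjusted p = 0.135 from limma). Sgk1, a kinase gene induced by glucocorticoids and the most abundant of the list, went the other way by value, at 115.4, 116.3 and 123.7 FPKM with Rb1 and 95.4, 97.1 and 101.1 FPKM with DMSO (log2 difference 0.27, adjusted p = 0.184 from limma). The unadjusted limma p of Sgk1 was 0.0325, and it was 0.0739 with the replicate block and 0.0549 to 0.101 on leaving out any 1 library but Rb1 replicate 1. Fkbp5, also induced by glucocorticoids, was at 25.8, 25.4 and 27.2 FPKM with Rb1 and 34.5, 28.9 and 27.7 FPKM with DMSO (log2 difference −0.20, adjusted p = 0.354 from limma). Of the glucocorticoid-induced genes named here, Fkbp5 was thus lower and Sgk1 higher by value, and Tsc22d3 overlapped between the groups. Fkbp5 and Tsc22d3 were picked after their values were seen. Dusp1 of the same list also overlapped, and Per1, set out above, was lower largely through Rb1 replicate 1. Whether glucocorticoid signalling differed between the groups was not tested. Zbtb16 is left out here, because the filter had fixed its direction.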

How the data were processed

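RNA-seq of 6 BMSC libraries was analysed, 3 given ginsenoside Rb1 and 3 given DMSO, grouped by the treatment that the labels give. A stranded kit was used on total RNA after rRNA removal. The authors deposited FPKM values for 22062 rows of protein-coding genes, and, under a heading of counts, a signal in which each library's fragments are scaled by a constant. The submitters' processing notes name CASAVA 1.8, HISAT2 and the human build hg19, which does not match the rat table. Dividing by the most frequent step gave whole fragments, within 0.05, for 98.7% to 99.4% of the values above 0.

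FPKM of rows with 1 symbol were summed. The test was limma 3.58.1 in R 4.3.3 for genes reaching 1 FPKM in 3 or more libraries, on log2(FPKM + 1), a scale that understates changes of low genes, with group as the only term and Benjamini-Hochberg adjustment over 10781 genes. The fit was tested on simulated data. An exact two-sided permutation test was added for each member. Intervals cover the spread between libraries.

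The members and gene lists were chosen with earlier results of these data known. Named were all members, of each further list the genes with an unadjusted p under 0.05 and the most abundant gene (for the output genes it is not reported here), and the 5 genes nearest in profile to the member with the smallest p. Genes named beyond these, among them Ciart, Npas2, Hlf, Thra, Csnk1d, Csnk1e, Fkbp5, Tsc22d3 and Skp1, were chosen after their values were seen. Alternatives covered the replicate block, pseudocount, filter, scaling, variance model, library weights, row choice and leaving out each library. Voom on the recovered fragments was added after seeing the data. Start regions are from RefSeq, assembly GRCr8, which is not the build of the table.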

Additional observations from a re-analysis of the deposited data

How the results depend on the processing

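In each of the 17 alternatives limma gave an adjusted p under 0.05 for 0 of 10 clock genes. At an unadjusted limma p under 0.05 the count of 2 became 1, with the loss of Clock, with the replicate block and with a trended robust variance. It also became 1 with a mean FPKM of at least 5, where Clock was not tested. On leaving out 1 library it lay between 0 and 2. The count over all genes moved as well, from 2467 of 10781 to 2082 with the replicate block and 2469 with a trended robust variance. It was 1981 of 7594 with a mean FPKM of at least 5. On leaving out 1 library it lay between 1463 and 2554, and it was 1463 without DMSO replicate 1, where 0 members were called. Over all genes, 2 had an adjusted p under 0.05, against 800 with array weights, 1 with a mean of at least 5 FPKM or median centring, 0 with the replicate block or voom on fragments (limma, with 2467 at an unadjusted p under 0.05 in the main test), and 0 to 6 on leaving out 1 library. Whether the replicate numbers pair the libraries was not settled. The correlation of deviations from the group means was −0.0038, −0.042 and 0.16 for libraries of equal number, and −0.171 to 0.145 for those of unequal number. With 3 libraries per group these values cannot exclude a pairing, and the samples share only a number.

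Per1, Cry2, Arntl, Clock and Nr1d1 kept their direction in every alternative, and 5 members did not. Per3 turned to 0.082 with quantile normalization, 0.054 with median centring, 0.15 with array weights, and up to 0.12 on leaving out 1 library (range −0.16 to 0.12). With voom on fragments Per3 stood at −0.23 (unadjusted p = 0.265 from limma), beside −0.023 in the main test. Cry1 turned to −0.082 with array weights and ranged from −0.042 to 0.085 on leaving out 1 library. Dbp turned to −0.011 with array weights and −0.074 with voom and ranged from −0.0044 to 0.076 on leaving out 1 library, while Nr1d2 ranged from −0.078 to 0.26 and Per2 from −0.056 to 0.10. The causes were not tested. The planned count models were not run, because some scaled counts near 0 are not whole multiples of the step. Per member and library there were 64 to 684 fragments.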
